A study of Mus musculus with 16 samples.

Results

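The ETS transcription factors share a DNA-binding domain, the ETS domain, that recognizes a GGAA core in DNA, and they differ in partners, in the signals that modify them and in the cells that use them. Ets1 and Ets2 are founding members that MAP kinase signaling can activate, Etv1 and Etv4 belong to the PEA3 group that acts downstream of FGF and other receptor tyrosine kinases in lung development, and Elk3 is a ternary complex factor that works with SRF. Elf3, Elf5, Ehf and Spdef are the epithelial members, with Spdef known for goblet cell differentiation in the airway and Elf5 for epithelial progenitors, while Fli1 is best known from blood and endothelial cells.

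Chromatin accessibility around these 10 genes was taken from ATAC-seq of SCLC cells, a method in which the Tn5 transposase inserts sequencing adaptors where DNA is open. Tumors grew in the lungs of TKO;Hes1 GFP/+ mice, which are homozygous for floxed alleles of Rb, p53 and p130 and carry 1 Hes1 allele that reports as GFP, after adenoviral Cre under the CMV promoter, which is not restricted to a lung cell type. Mice were adults of both sexes, and tumors were taken some months after induction. GFP+ cells (non-NE) and GFP- cells (NE) were sorted from the pooled tumors of each mouse, with antibodies to CD45, CD31 and TER-119, which mark leukocytes, endothelium and erythroid cells, and to CD24 in the stain. Both groups come from mice with the same floxed alleles and the same reporter allele and were separated by GFP. Deletion of the floxed alleles in the sorted cells was not examined here, nor was any part of normal epithelial cells among them. The labels give 16 runs, which are 8 libraries on 2 lanes, with 4 libraries in each group from 3 mice, and 1 mouse gave 2 libraries in each group. The authors merged the peaks of all samples, tested GFP+ against GFP- cells with DESeq2 and deposited those peaks that passed their limits on the fold change and the adjusted p-value, split into opened (more accessible in GFP+) and closed (less accessible in GFP+) peaks. A listed peak comes here with its position, its list and its mean normalized count over all libraries, so no value per library, no depth per library and no spread between mice is known, and every peak is a call of the authors' test. Populations were measured in bulk, and fewer cells with an open site and less opening in each cell cannot be told apart.

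A peak was assigned to an ETS gene when a start site of that gene was the nearest protein-coding start site to the peak's centre (basic GENCODE annotation, mm10). The rule does not use the direction of a peak. It gave 135 of the 80367 listed peaks, of which 67 were opened and 68 closed. Assignment by distance is a label of place and does not show which gene a site acts on.

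The sort was checked on marker genes by the same assignment. Of 7 neuroendocrine markers, among them Insm1 and Calca, 6 had a closed promoter peak and none an opened one, with Syp without a listed peak, while Hes1, the gene whose reporter sets the gate, had an opened promoter peak. Over all protein-coding genes, 8.43% had a closed promoter peak and 26.6% an opened one. All peaks of the neuroendocrine markers were 11 opened and 54 closed, with 8 opened and 6 closed for Chga and 3 and 9 for Ncam1. The 3 Club markers Scgb1a1, Scgb3a2 and Cyp2f2 and all 4 AT1 markers had an opened promoter peak, and 3 of 4 AT2 markers did. All peaks were 46 opened and 14 closed for the Club list with Hes1, and Hes1 itself, the gene of the gate, gave 26 and 11 of these. They were 18 and 9 for AT1, where Cav1 had 2 and 6, and 16 and 1 for AT2. Markers of cell types that the tumor holds beside the cancer cells, of which the stain addresses leukocytes and endothelium, gave 14 opened and 7 closed peaks for leukocytes, 15 and 45 for endothelium and 10 and 13 for fibroblasts, and Cd68, Kdr and Col1a1 had an opened promoter peak, Tek and Col1a2 a closed one.

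The sequences below are of the strongest promoter peak of a gene, or of its highest peak where it has none. One is shown for each of the 10 genes, so that the sites can be compared, and they are read 5′ to 3′ on the gene's own strand from GRCm38.p6, the assembly of mm10, within the central 200 bp of the peak and without bases of annotated exons. Capitals mark matches to the motifs searched, which are named in the next paragraph.
Elf3, opened promoter peak, chr1:135258569-135258689, minus strand: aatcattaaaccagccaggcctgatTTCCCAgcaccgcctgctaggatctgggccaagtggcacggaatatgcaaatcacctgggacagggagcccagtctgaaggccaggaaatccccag
Spdef, opened promoter peak, chr17:27728956-27729092, minus strand: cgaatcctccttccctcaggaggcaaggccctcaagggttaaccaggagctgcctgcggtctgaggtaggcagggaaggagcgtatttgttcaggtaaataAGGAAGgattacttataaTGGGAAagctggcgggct
Elf5, opened promoter peak, chr2:103424704-103424827, plus strand: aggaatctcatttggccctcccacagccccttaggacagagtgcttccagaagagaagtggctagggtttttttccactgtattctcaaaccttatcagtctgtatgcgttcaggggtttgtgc
Elk3, opened promoter peak, chr10:93311136-93311221, minus strand: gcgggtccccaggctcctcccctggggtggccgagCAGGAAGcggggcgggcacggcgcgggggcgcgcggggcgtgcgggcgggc
Etv4, opened promoter peak, chr11:101785372-101785406, minus strand: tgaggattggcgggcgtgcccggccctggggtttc
Ehf, closed promoter peak, chr2:103302225-103302424, minus strand: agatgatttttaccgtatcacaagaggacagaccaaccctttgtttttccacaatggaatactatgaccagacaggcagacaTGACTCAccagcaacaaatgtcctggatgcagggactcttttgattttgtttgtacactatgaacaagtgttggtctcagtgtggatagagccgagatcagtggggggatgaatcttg
Ets1, opened peak in an intron of the gene, chr9:32746275-32746474, plus strand: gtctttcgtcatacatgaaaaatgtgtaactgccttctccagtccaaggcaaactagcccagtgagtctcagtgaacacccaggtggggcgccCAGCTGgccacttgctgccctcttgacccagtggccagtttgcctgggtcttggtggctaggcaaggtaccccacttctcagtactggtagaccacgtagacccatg
Ets2, opened peak in an intron of the gene, chr16:95716298-95716481, plus strand: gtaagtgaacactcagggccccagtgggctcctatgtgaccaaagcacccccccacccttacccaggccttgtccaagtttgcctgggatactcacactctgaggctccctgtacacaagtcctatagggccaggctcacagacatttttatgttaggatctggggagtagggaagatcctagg
Etv1, closed intergenic peak, chr12:38942008-38942207, plus strand: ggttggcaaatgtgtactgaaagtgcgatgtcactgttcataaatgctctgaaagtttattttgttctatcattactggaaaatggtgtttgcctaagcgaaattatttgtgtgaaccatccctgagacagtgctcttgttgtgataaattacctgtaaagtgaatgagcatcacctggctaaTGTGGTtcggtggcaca
Fli1, closed peak in an intron of the lincRNA gene Gm47680, chr9:32615979-32616178, minus strand: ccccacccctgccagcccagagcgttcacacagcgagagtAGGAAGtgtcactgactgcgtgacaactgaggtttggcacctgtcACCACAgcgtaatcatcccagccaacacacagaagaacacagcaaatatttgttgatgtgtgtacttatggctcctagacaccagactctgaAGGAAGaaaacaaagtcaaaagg

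Motifs were exact strings searched on both strands: CCGGAAG or CAGGAAG for ETS factors as a class, CCGGAT for SPDEF, TGANTCA for AP-1, GGAATG for TEAD, TGTTTAC for FOX, TGTGGT for RUNX, TGGGAA for RBPJ, AACCNGTT for GRHL, CAGCTG for an E-box and CACTTGA for NKX2. The TEAD and RBPJ strings share the GGAA core of the ETS string but differ from it in the letters beside the core, so that no GGAA matches the ETS string and either of them. In the sequences shown, Elk3 holds the ETS string at chr10:93311180-93311186, Ehf the AP-1 string at chr2:103302336-103302342, Elf3 and Spdef the RBPJ string, Etv1 and Fli1 the RUNX string, and Ets1 the E-box string. Spdef and Fli1 hold only the short ETS core AGGAAG, at 1 and 2 places, and the Elf5, Ets2 and Etv4 stretches hold none of the strings. A match is a run of letters and was not tested for binding.

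**Figure D1:**
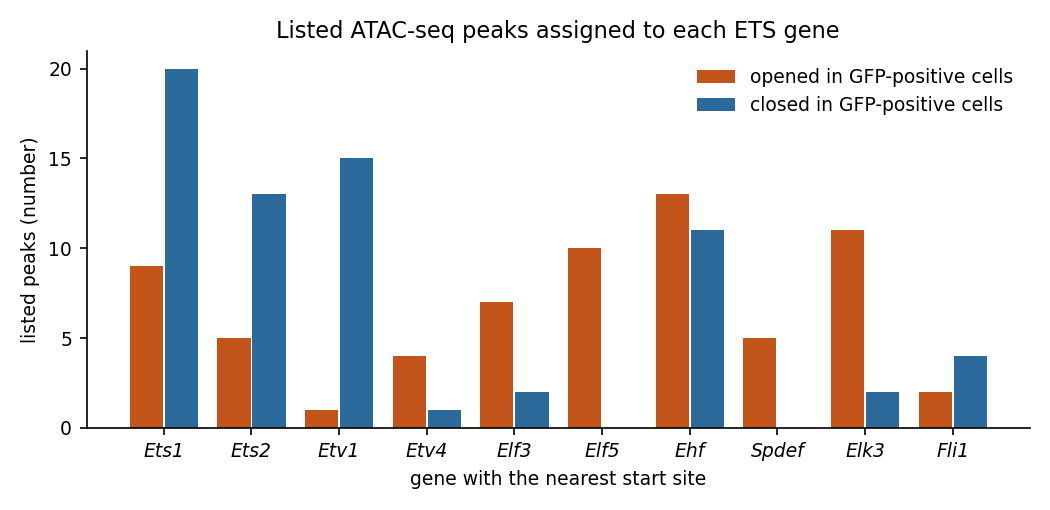
Number of listed peaks (y axis) with each ETS gene (x axis) as the gene of the nearest start site, as separate bars for peaks opened and closed in GFP+ cells. Closed peaks outnumber opened ones at Ets1 (20 against 9), Ets2 (13 against 5), Etv1 (15 against 1) and Fli1 (4 against 2), though with start sites of any biotype Ets1 has none, Ets2 has 3 of each and Fli1 has 1 against 2, and Elf5 and Spdef have opened peaks only.

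The pooled peaks of the 10 genes were balanced, and the genes were not alike. Of the 135 peaks, 49.6% were opened (Wilson 95% interval 41.3 to 58.0%, counting error only), where 50.8% of all listed peaks were. The epithelial members Elf3, Elf5, Ehf and Spdef together had 35 opened of 48 peaks, 72.9% (59.0 to 83.4%). Ehf gave 24 of these 48 and was balanced, with 13 opened and 11 closed. Elf3 had 7 opened and 2 closed, and Elf5 and Spdef had opened peaks only. Ets1 and Ets2 together had 14 of 47, 29.8% (18.7 to 44.0%), and Etv1 and Etv4 had 5 of 21, 23.8% (10.6 to 45.1%), which came from opposite balances at each of that pair. With start sites of any biotype Etv1 had 1 opened and 3 closed peaks and Etv4 had 4 and 1, so the low share of that pair depends on the assignment. Peaks of 1 gene share a locus and are not replicates, so the intervals describe counts and no test of a difference between genes was made.

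All 10 genes had more listed peaks assigned to them than the median gene. Among the 14590 genes with a listed peak the median number was 3, and Ets1 with 29 stood at the 98.4th percentile, Ehf with 24 at the 97.4th, Ets2 with 18 at the 94.9th and Etv1 with 16 at the 93.4th. Elk3 had 13 peaks, Elf5 10, Elf3 9 and Fli1 6. Etv4 and Spdef had 5 each and stood at the 70.0th percentile. The rank is by number of assigned peaks and not by density. The peaks of Etv1 spread over 898 kb, and 14 peaks of other genes lay within 1 Mb of it.

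The genes also differed at their own start sites, within 1 kb of which a peak is called a promoter peak here. An opened promoter peak was found for 5 of the 10 genes, Etv4, Elf3, Elf5, Spdef and Elk3, where 26.6% of all 21911 protein-coding genes had one. A closed promoter peak was found for Ehf, which makes 1 of 10, where 8.43% of all protein-coding genes had one. Both shares over all genes include genes without any listed peak. Only 14590 genes had a listed peak, and each of the 10 had at least 5, so the shares are not those of genes alike in peak number. For Ets1, Ets2, Etv1 and Fli1 no listed peak lay within that distance, with the nearest at 9.80 kb, 2.22 kb, 5.29 kb and 8.22 kb. The absence of a listed peak does not show that a promoter was closed in either population, and the comprehensive annotation places further start sites of Ets1 and Ets2 next to listed peaks.

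**Figure D2:**
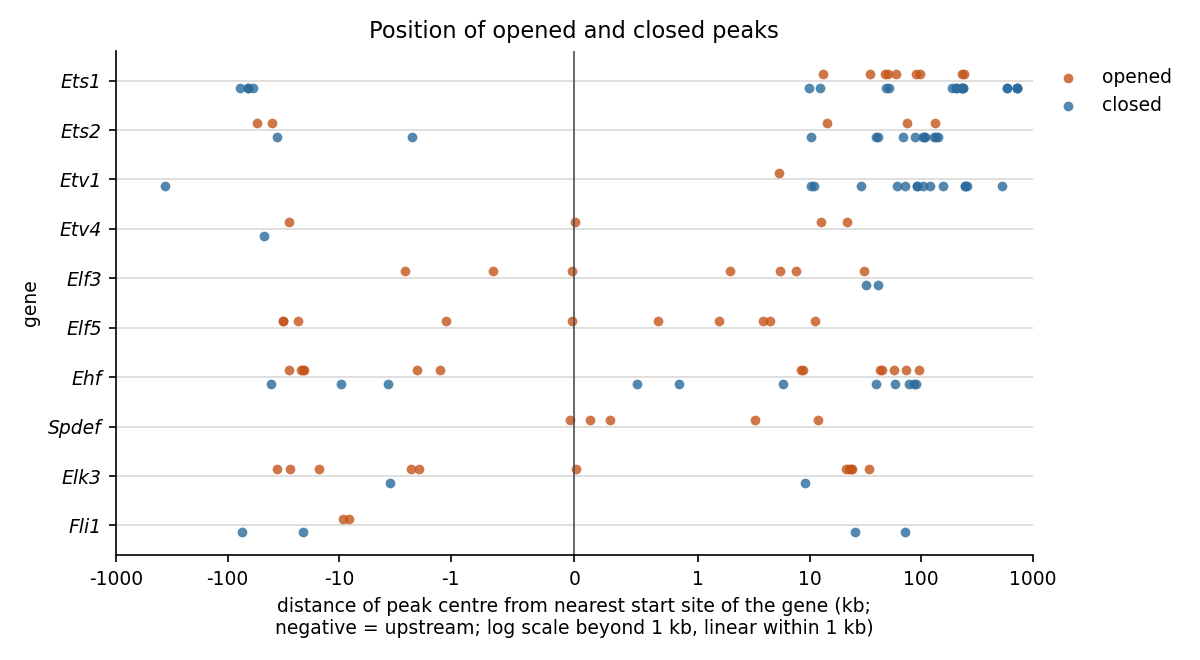
Distance of each listed peak's centre from the nearest start site of its gene (x axis, kb, negative upstream, linear within 1 kb and logarithmic beyond it), by gene (y axis), with opened peaks above and closed peaks below each line. Opened peaks lie at the start sites of Etv4, Elf3, Elf5, Spdef and Elk3, closed ones lie within 1 kb of a start site of the basic annotation only for Ehf, and the farthest closed peaks of Ets1 reach 731 kb downstream.

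Elf3, an epithelial factor of barrier tissues, had the highest peaks of all 10 genes. Its promoter peak at chr1:135258325-135258853, centred 21 bp from the start site, had a mean normalized count of 591 and was opened. A peak of 934 bp, chr1:135227242-135228175, had a mean of 589 and lay in intergenic sequence 30.7 kb downstream of the start site. Both were in the opened list and both stood above the 99th percentile of all listed peaks, at 99.2.
The other 5 opened peaks of Elf3 had means of 40.0 to 107 and lay within 8 kb of the start site, among them a further promoter peak of mean 54.9 at chr1:135259161-135259284. Of the 9 peaks, 7 were opened, and 6 of the 7 lay inside Gm26642, an antisense gene that covers the locus, so the gene that these sites serve cannot be read from position. The 2 closed peaks, with means of 77.1 and 28.0, lay farthest downstream, and the weaker of them, chr1:135226614-135226847, ended 394 bp short of the 589-count opened peak.

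Elf5, known from mammary alveolar and embryonic lung tip epithelium, had 10 opened peaks and no closed one. All peaks of a gene were opened in 5.58% of the genes with 10 or more listed peaks. Among the 10 genes described here, Elf5 was 1 of the 6 in that class. It stood at the edge of the class: it had 9 peaks with merging, 7 with the gene body and 10 kb around it, 7 with start sites of any biotype and 6 with a mean of at least 30, each time with no closed peak. Among the genes with 5 or more peaks, to which all 10 belong, 13.4% had opened peaks only, and here these were Elf5 and Spdef.
The highest and widest Elf5 peak, chr2:103387754-103388737, had a mean of 165 over 984 bp and lay 23.4 kb upstream, within 1 kb of a start site of the lincRNA gene BC016548. The promoter peaks were lower, with a mean of 42.6 at chr2:103423922-103424161, 21 bp from a start site, and 51.8 at chr2:103424705-103424902. Both lie at the internal start sites of Elf5, and none of its listed peaks lay within 1 kb of the most upstream start site. Inside the gene 7 peaks were opened, all in the first or second intron of its transcripts or at these starts.

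Ehf, a further member of the ESE group and the neighbor of Elf5 on chromosome 2, carried both kinds of peaks. It had 13 opened and 11 closed peaks, 54.2% opened (35.1 to 72.1%), and along the locus the list changed 11 times from a peak to the next. Upstream of the gene 4 were opened and 3 closed, inside it 4 and 3, and downstream of it 5 and 5, so no side of the locus belonged to either list.
The highest opened peak, chr2:103209463-103210256, had a mean of 216, was also the widest at 794 bp and lay 73.9 kb downstream of the nearest Ehf start site. The highest closed peak, chr2:103343597-103343985, had a mean of 146 and lay 40.5 kb upstream. At the start of the gene the closed peaks chr2:103302218-103302431 and chr2:103302622-103302694, with means of 56.6 and 23.9, lay 842 and 508 bp from the nearest start site, in the first intron. Of the 10 genes, Ehf was the sole one with closed promoter peaks in the basic annotation, and the comprehensive annotation adds an opened one, chr2:103274849-103275153 with a mean of 32.6, 750 bp from the start of a retained-intron transcript. With the gene body and 10 kb around it 4 opened and 5 closed peaks stayed with Ehf, and with start sites of any biotype 8 and 5. Between Ehf and Elf5 the assignment turns in a stretch of 35764 bp without a listed peak.

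Spdef, the goblet cell factor, had 5 opened peaks in 12.3 kb and no closed one. Its 3 promoter peaks were low, with means of 9.53, 7.43 and 22.7, and lay next to each other between chr17:27728532 and chr17:27729125. The highest and widest, chr17:27716851-27717284, had a mean of 62.7 and lay in an intron. Where peaks within 100 bp were merged, 3 peaks remained, all opened. With a mean of at least 30 required, 1 remained.

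Elk3, which represses SRF targets until it is phosphorylated, had 11 opened and 2 closed peaks, 84.6% opened (57.8 to 95.7%). Its promoter peak chr10:93310949-93311294 had a mean of 128, was centred 14 bp from the start site and was the highest of the gene. The widest peak, chr10:93313166-93313637, had a mean of 95.1 and lay 2.27 kb upstream. The other opened peaks had means of 8.57 to 67.0.
A cluster of 5 opened peaks lay in introns of Elk3 that the annotation also places inside the neighboring Cdk17 gene, so these peaks belong to overlapping genes. The 2 closed peaks, with means of 65.3 and 35.7, lay in the introns between that cluster and the promoter, at chr10:93275842-93276107 and chr10:93288353-93288650. Opened sites thus stood on both sides of the closed ones.

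Etv4, a target of FGF signaling in distal lung epithelium, had 4 opened peaks and 1 closed. The promoter peak chr11:101785099-101785514, centred 4 bp from a start site, had a mean of 88.6, and the highest peak, chr11:101772308-101772862 in the eighth intron, had a mean of 138. The other opened peaks had means of 20.3 and 3.90, and the closed peak, chr11:101832038-101832370, had a mean of 20.5 and lay 46.8 kb upstream. The 2 high sites of Etv4 were opened and the 3 others were weak.

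Etv1, the other PEA3 member here and a regulator of neuronal identity in some neurons, had the opposite balance to Etv4. It had 15 closed peaks and 1 opened, 6.25% opened (1.11 to 28.3%). At most 1 opened peak was found in 15.9% of the genes with 15 or more listed peaks. Among the 10 genes described here, Etv1 was 1 of the 4 in that class. It kept 1 opened peak under each other assignment, beside 7 closed within 100 kb or with the gene body and 10 kb around it, 6 with a mean of at least 30 and 3 with start sites of any biotype, all below that class.
The closed peaks had means of 7.54 to 115. The highest of them, chr12:38941881-38942333, lay 159 kb downstream of the nearest start site, and 9 closed peaks lay downstream of the gene and 5 inside it. The widest, chr12:38843780-38844328, had a mean of 47.0 and lay inside the gene. The sole opened peak, chr12:38788591-38789002, had a mean of 94.8, above 14 of the 15 closed peaks, and was the nearest of all to a start site, at 5.29 kb. The peak farthest upstream, 367 kb from the start site, lay inside the neighboring gene Dgkb.

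Ets1, a factor of lymphoid and endothelial cells that many carcinomas also express, had 9 opened and 20 closed peaks, 31.0% opened (17.3 to 49.2%). Inside the gene 5 were opened and 4 closed. Upstream of it 0 were opened and 4 closed, and downstream 4 were opened and 12 closed. The closed excess of Ets1 therefore lay outside the gene, and 14 of the 29 peaks were over 100 kb from a start site. Within 100 kb it had 7 opened and 8 closed peaks, with the gene body and 10 kb around it 5 and 7, and with start sites of any biotype none.
The highest opened peak, chr9:32746145-32746603 in a later intron, had a mean of 131. The highest closed peak, chr9:32705932-32706430 in the first intron, had a mean of 117. Peaks of both lists alternated in the gene: the closed peak chr9:32708496-32708830, with a mean of 91.4, was followed after 528 bp by the opened peak chr9:32709359-32709674, with a mean of 113. The widest peak, chr9:33426986-33427656, was closed, had a mean of 113 and lay 731 kb downstream, so its link to Ets1 rests on the absence of a nearer coding gene. The closed peak chr9:32636073-32636304, with a mean of 32.6, spans the start of a retained-intron transcript of Ets1 that the comprehensive but not the basic annotation holds, 33 bp from its centre.

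Fli1, the next gene on the same chromosome, had 2 opened and 4 closed peaks. The closed peaks had means of 13.6 to 119 and the opened ones of 44.0 and 9.36, and the groups overlapped. The highest, chr9:32615902-32616255, was closed and lay 74.5 kb upstream of Fli1, and the closed Ets1 peak chr9:32618830-32619176, with a mean of 87.4, followed it after 2574 bp at 77.0 kb from Ets1. This pair of closed sites was assigned to different genes by a narrow margin of distance, and with the gene body and 10 kb around it Fli1 had 3 opened and 7 closed peaks. With start sites of any biotype it had 2 opened and 1 closed, so that the balance turned. The widest peak of Fli1, chr9:32469260-32469630, was closed as well, with a mean of 41.3 in the second intron.
Fli1 and Ets1 are active in endothelium and blood cells. Beside their 11 opened and 24 closed peaks stand the endothelial marker list, with 15 opened and 45 closed peaks, 23 of the closed ones at Cdh5, and the leukocyte list, with 14 opened and 7 closed, 11 of the opened ones at Ptprc. The sort used CD45 and CD31 antibodies, which mark leukocytes and endothelium, and the part of any such cells in the Fli1 and Ets1 peaks was not tested.

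Ets2, which is broadly expressed and MAP kinase responsive, had 5 opened and 13 closed peaks, 27.8% opened (12.5 to 50.9%). The highest and the next highest peaks were nevertheless opened, with means of 183 at chr16:95716072-95716691 in the eighth intron and 138 at chr16:95776801-95777491, the widest, 75.1 kb downstream. The highest closed peak, chr16:95831555-95831958, had a mean of 89.4. Of the 12 peaks downstream of the gene 10 were closed, and 8 of these lay inside the lincRNA gene 1600002D24Rik, which held 10 of the peaks in all. Outside it 3 peaks of Ets2 were opened and 5 closed. With start sites of every biotype allowed only 3 opened and 3 closed peaks stayed with Ets2.

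**Figure D3:**
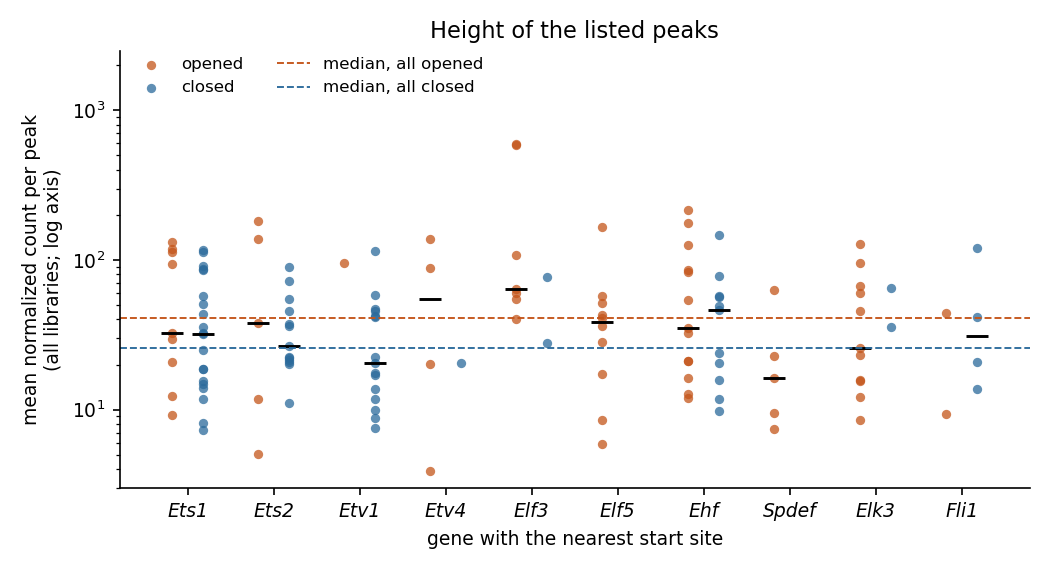
Mean normalized count of each listed peak over all libraries (y axis, log scale), by gene (x axis) and list, with black bars at the median of groups of at least 3 peaks and dashed lines at the medians over all opened and all closed peaks. The Elf3 promoter and downstream peaks, at 591 and 589, stand above every other peak shown, and the opened and closed peaks of Ets1 overlap over most of their range.

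In height the opened peaks of these genes resembled the opened list and the closed peaks the closed list. The median mean normalized count was 40.0 for the opened peaks (40.7 over all opened peaks) and 29.9 for the closed peaks (25.8 over all closed peaks). A mean of at least 100 was found in 14 of 67 opened peaks, 20.9% (12.9 to 32.1%), against 25.5% of all opened peaks, and in 5 of 68 closed peaks, 7.35% (3.18 to 16.1%), against 9.20% of all closed peaks. In position the closed peaks lay a median of 73.3 kb from the start site, where all closed peaks lay at 42.4 kb, and 50.0% of them were intergenic, where 35.2% of all closed peaks were. Ets1, Ets2 and Etv1 carried the distance: every peak over 100 kb from a start site was theirs (14, 7 and 8), and their 48 closed peaks lay at a median of 105.8 kb. The 20 closed peaks of the other 7 genes lay at a median of 35.4 kb, below that of all closed peaks, and 11 of them were intergenic. The opened peaks lay at 20.9 kb against 17.5 kb over all opened peaks, and 16.4% of them were within 1 kb of a start site of any gene, against 22.3%.

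The loci were then compared with their surroundings, the peaks of other genes within 1 Mb of the gene. Around Etv4 89.5% of 171 such peaks were opened, and around Spdef 89.9% of 149, so the opened peaks of both genes lay in surroundings that were opened as a whole. On chromosome 11, which holds Etv4, 71.1% of all listed peaks were opened, the highest share of any chromosome. Around Elf5 and Elk3 the shares were 50.0% of 126 and 46.6% of 88, which lie below the intervals of Elf5 (72.2 to 100%) and of Elk3 (57.8 to 95.7%).
Around Etv1 0 of 14 peaks were opened. Around Ets1 36.2% of 58 and around Fli1 34.8% of 89 were opened, close to the genes' own 31.0% and 33.3%, and the windows of these neighbors overlap. Around Ets2 the share was 47.8% of 92, within the interval of the gene's own 27.8%. Around Elf3 and Ehf it was 63.9% of 119 and 54.7% of 106, both within the intervals of the genes.

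**Figure D4:**
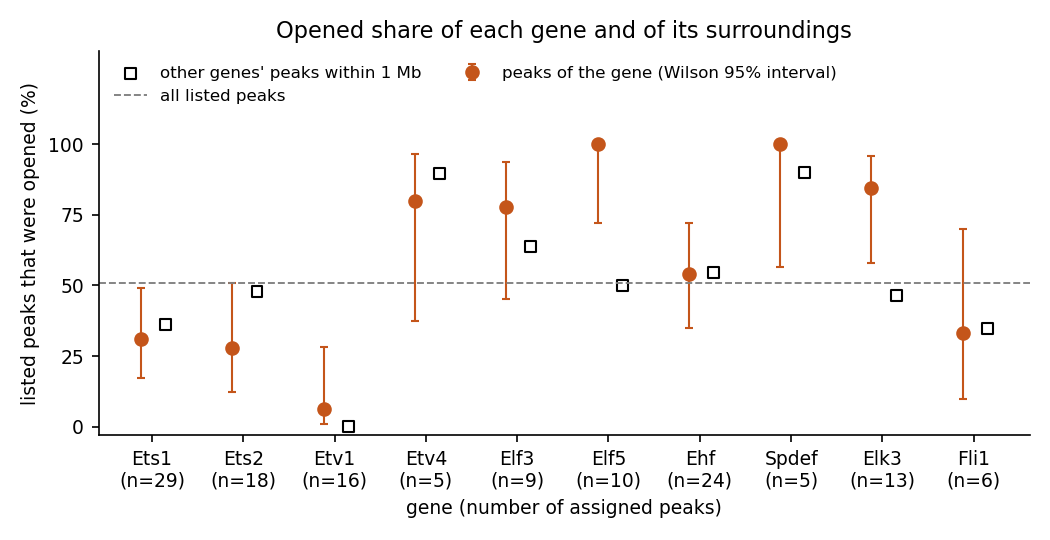
Share of listed peaks that were opened (y axis, percent) for each gene (x axis, with its number of peaks), as filled points with Wilson 95% intervals, and for the peaks of other genes within 1 Mb as open squares; the dashed line is the share over all listed peaks, 50.8%. The squares of Elf5 and Elk3 lie below the intervals of these genes, and those of Etv4, Spdef and Etv1 lie close to or within them.

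ETS strings themselves were searched in the central 200 bp of the peaks, a window that runs past the edges of the 44 peaks narrower than it. No ETS match lay outside its peak. They were found in 13 of the 135 peaks, 9.63% (5.71 to 15.8%), where 13.9% of all listed peaks held one. By list it was 5 of 67 opened peaks, 7.46% (3.23 to 16.3%), against 15.2% of all opened peaks, and 8 of 68 closed peaks, 11.8% (6.08 to 21.5%), against 12.6% of all closed peaks. All 3 intervals hold the share over the listed peaks of the same kind. The peaks with a match belonged to Ets1 (5), Ets2, Etv1 and Elk3 (2 each), Elf5 and Ehf (1 each), and for Elk3 they included the opened promoter peak.
Over their whole width 21 of the 135 peaks held the string, among them the Elf3 promoter peak and the highest Spdef peak. The sites shown are those of the central windows, where an ETS locus holds the string of its own class. Each is given in the direction of the string with 10 bases on either side and the string in capitals. The site in a closed Ets2 peak that touches an exon is left out.
Ets1, closed, chr9:32618898-32618924, plus strand: gaccttagacCAGGAAGcactctgaga
Ets1, closed, chr9:32706218-32706244, minus strand: ggttgctgccCAGGAAGcacctgtgaa
Ets1, closed, chr9:32708729-32708755, plus strand: tgtgtgtgtcCAGGAAGcatatccttg
Ets1, closed, chr9:32747806-32747832, minus strand: acactggagtCCGGAAGtgacccgtct
Ets1, opened, chr9:32940514-32940540, minus strand: agtgtgggacCCGGAAGtgcacggttc
Ets2, closed, chr16:95771019-95771045, minus strand: gttgcctataCAGGAAGgagggtggag
Etv1, closed, chr12:38793811-38793837, plus strand: tgtcagaatgCAGGAAGagtgattcat
Etv1, closed, chr12:38904714-38904740, minus strand: tcagcacttgCAGGAAGtgtgttagga
Elf5, opened, chr2:103379752-103379778, plus strand: gggcatatccCAGGAAGgaaggctctc
Ehf, opened, chr2:103275024-103275050, minus strand: gacttcatgcCAGGAAGaaggtgggtg
Elk3, opened promoter, chr10:93311170-93311196, minus strand: ggtggccgagCAGGAAGcggggcgggc
Elk3, opened, chr10:93313413-93313439, minus strand: aagctcagtgCCGGAAGggtccttcag
Of the 13 matches, 9 had the form with CAGGAAG and 4 the form with CCGGAAG. The SPDEF string was found in the central part of none of the 135 peaks, which allows up to 2.77% by the Wilson interval, against 2.45% of all listed peaks.

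Among the other motifs, the AP-1 string had the widest gap between the closed and the opened peaks of these genes, and no test of a difference between the lists was made. The AP-1 string was in 20 of 68 closed peaks, 29.4% (19.9 to 41.1%), and in 6 of 67 opened peaks, 8.96% (4.17 to 18.2%), against 26.4% and 10.6% over all closed and all opened peaks. Of the 20 closed peaks with it, 7 belonged to Ets1, 5 to Ets2, 4 to Etv1, 3 to Ehf, the promoter site shown above among them, and 1 to Elf3. In 2 of these, a closed Ets1 peak and a closed Ehf peak, the string lay in the window beyond the edge of a narrow peak. The TEAD string was in 11 opened peaks, 16.4% (9.42 to 27.1%), and in 6 closed ones, 8.82% (4.11 to 17.9%), against 18.1% and 8.77%. The opened and closed intervals of the TEAD string overlapped.
The RBPJ string, that of the DNA-binding partner of Notch, was in 16 opened peaks, 23.9% (15.3 to 35.3%), and 14 closed ones, 20.6% (12.7 to 31.6%), against 20.6% and 16.3%. Among the opened peaks with it were the Elf3 and Spdef promoter peaks and 5 of the 10 Elf5 peaks. RUNX strings were in 11 opened and 7 closed peaks, 16.4% and 10.3%, against 19.5% and 13.8%. The E-box string was in 10 opened peaks, 14.9%, and 12 closed ones, 17.6%, against 12.0% and 22.6%, and the NKX2 string in 7 opened peaks and 1 closed one, 10.4% and 1.47%, against 6.67% and 5.03%. The shares of FOX, GRHL, E-box and NKX2 strings in each list had intervals that hold the share over the whole list.

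**Figure D5:**
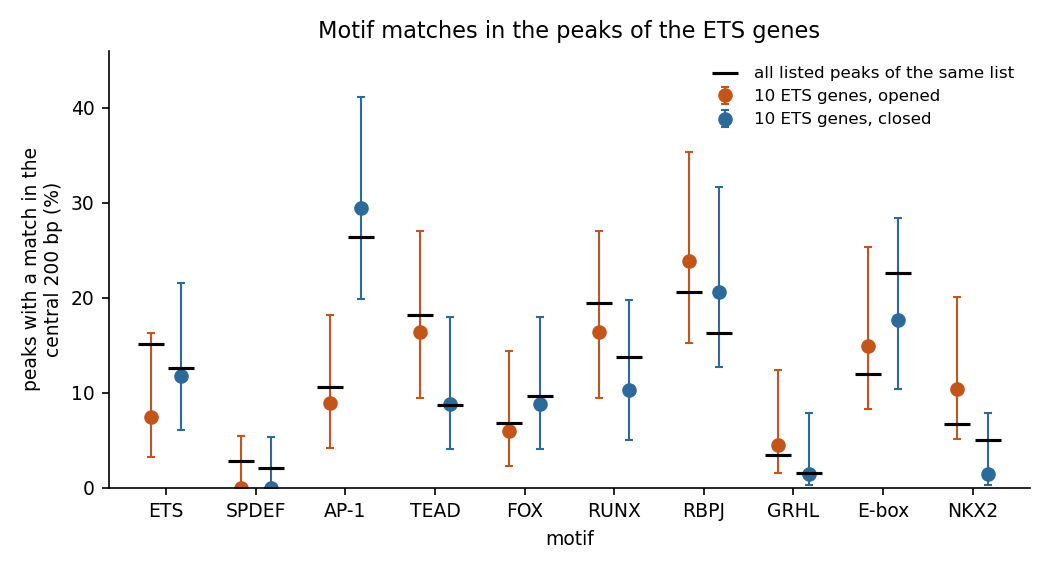
Share of peaks with at least 1 match to each motif (x axis) in the central 200 bp (y axis, percent) for the opened and closed peaks of the 10 ETS genes, as points with Wilson 95% intervals, and over all listed peaks of the same list as black dashes. The AP-1 string is in 29.4% of the closed and 8.96% of the opened peaks, and the dashes lie within the intervals for all 10 motifs.

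The remaining 16 ETS genes were counted in the same way. Of these, 12 had listed peaks, 84 in all, with 47 opened and 37 closed, 56.0% opened. Etv6, a transcriptional repressor required for blood and vascular development, had both the most opened peaks, 11, and the most closed ones, 18. In 7 of the 12 genes all peaks were opened, and in none were all closed, where 36.9% of the genes with a listed peak had opened peaks only and 21.7% closed peaks only, and 5 of the 7 had no more than 2 peaks. An opened promoter peak was found for 4 of the 16 genes and a closed one for 1, against 26.6% and 8.43% of all protein-coding genes.
The genes named next were chosen after their values were seen. Etv3 had 9 opened peaks and no closed one, with an opened promoter peak, and Etv5, the third PEA3 member, had 6 of each. Erg, the closest relative of Fli1, had 1 opened and 9 closed peaks and the closed promoter peak. Spi1, Spib and Spic, the factors of myeloid and lymphoid cells, had 2, 1 and 2 peaks, all opened, beside the leukocyte markers above. Elk1, Etv2, Fev and Gabpa had no listed peak.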

How the data were processed

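ATAC-seq runs were grouped by the GFP status in the labels. Per the study's methods and the submitters' processing notes, the authors trimmed reads, aligned them to mm10 with Bowtie2 2.3.4.1, removed duplicates with Samtools, called peaks with MACS2 with reads shifted and extended around the insertion site, merged the peaks of all samples, counted reads per peak with bedtools and compared the groups with DESeq2 1.28.1. Whether the lanes, or the libraries of the mouse that gave 2 per group, were summed first is not given in the sources used here. The deposited signal per peak is the authors' mean, over all libraries, of counts divided by size factors, so that a tall site in few libraries and a low one in many can have the same value. The other 5 deposited columns hold the authors' own comparison (log2 fold change, its standard error, test statistic, p-value and adjusted p-value) and were not used. Depth per library is unknown. Peaks that did not pass the authors' limits were not analysed here.

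Peak starts were converted to 1-based positions. The class, the distance and the gene of a peak were taken from its centre with basic GENCODE M21 in Python 3.11.15 (pandas 2.3.3, scipy 1.17.1), and sequence from GRCm38.p6, within whose chromosomes all peaks lie. Assignment and motif search were tested on simulated data. No comparison was refitted and no test was made, since no value per library is given, and Wilson intervals cover counting error only. All 10 genes are described, each with its promoter peaks, its highest opened and closed peak and its widest peak; of the rest of the family those with the most peaks of either list are named. 1 neuroendocrine marker is not reported here. The members and lists were chosen with earlier results of these data known. Alternatives were start sites of coding transcripts or of any biotype, a limit of 100 kb, the gene body with 10 kb around it, the peak's edge, merging within 100 bp, a mean count of at least 30, promoters within 3 kb, motifs over the whole peak and a short ETS core; the comprehensive annotation was added after seeing the data.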

Additional observations from a re-analysis of the deposited data

How the results depend on the processing

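The number of assigned peaks, 135, was 130 to 135 with coding transcripts, the peak's edge, merging or the comprehensive annotation (134) and 106 with a limit of 100 kb, but 57 with start sites of any biotype, 74 with the gene body and 10 kb around it and 73 with a mean normalized count of at least 30. The opened share, 49.6%, was 60.4% within 100 kb, 59.5% with the gene body and 73.7% with any biotype, where noncoding neighbors take peaks of both lists, among them all 29 of Ets1. It was 45.6% to 55.5% when the peaks of 1 gene at a time were left out, lowest without Elf5 and highest without Etv1. Promoter peaks numbered 11, but 20 within 3 kb and 17 with the comprehensive annotation, which adds among others a closed one for Ets1 and opened ones for Ets2 and Ehf. An ETS string was in 9.63% of the central windows, in 15.6% of whole peaks and, as the short core, in 28.9% of the windows, where 31.8% of all listed peaks held that core. Of 160 counts per gene and list recomputed, 121 stayed within 1.5 times, and 39 did not, 15 of them with the higher mean count, 10 with the gene body and 10 with any biotype.

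No paired analysis was possible because the lists hold no value per library, and for the same reason no fit without a library was made.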

Other observations

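Of 25 pairs of neighboring peaks of 1 ETS gene that lay within 1 kb of each other, 3 had members of opposite lists, 12.0%, against 6.16% of the 13433 such pairs over all listed peaks, a share that the Wilson interval of the 3 pairs, from 4.17% upward, holds. These pairs were the Elf3 downstream pair with a gap of 394 bp and means of 28.0 closed and 589 opened, and a pair of Ets1 pairs with gaps of 528 bp and 899 bp. In the latter a closed peak with a mean of 14.8 preceded the highest opened Ets1 peak, with a mean of 131.

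ETS and AP-1 strings together in the central 200 bp were found in 4 of the 135 peaks, all closed, in Ets1 (chr9:32708496-32708830), Ets2 (chr16:95770889-95771177) and Etv1 (chr12:38793751-38793930 and chr12:38904565-38904759). That is 5.88% of the 68 closed peaks (2.31 to 14.2%), against 3.29% of all closed peaks and 1.43% of all opened peaks.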
